A study of Mus musculus with 235 samples.

Results

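Tead1 and 8 further genes of the Hippo pathway were followed through 8 punched brain regions of mice given dexamethasone or vehicle. The 9 genes are Tead1, Yap1, Wwtr1, Lats1, Lats2, Stk3, Sav1, Amotl1 and Ccn2, found by symbol among the 27998 genes of the deposited count table. Tead1 was selected on its region-dependent response in these data, so its levels and responses are given as a description without a test. The other 8 were listed for their place in the pathway, with results of these data known, and their tests carry p-values adjusted over all genes tested.

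All animals were adult male C57Bl/6 mice aged 3 months. Of 30 mice, 15 received dexamethasone at 10 mg per kg into the peritoneum and 15 received saline, and brains were perfused and taken 4 h later. The labels name the regions dCA1, vCA1, dDG, vDG, PFC, AMY, PVN and CER, and those names are kept here. Each region had 15 libraries per arm, except 14 for PFC dexamethasone, PVN vehicle and vCA1 vehicle and 13 for dCA1 dexamethasone. A library was made from 1 punch of 1 animal with a 3′ end kit that tags molecules, so a level is a number of tagged transcripts in a mixture of cell types. In such bulk samples, fewer cells of a type and less RNA per cell cannot be told apart.

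The Hippo pathway is a kinase cascade that restrains growth. The kinases of the Stk3 family, held by the adaptor Sav1, activate Lats1 and Lats2, which phosphorylate the co-activators Yap1 and Wwtr1 (the gene of TAZ) and keep them out of the nucleus. Unphosphorylated co-activators enter the nucleus and bind TEAD proteins such as Tead1, the factors that carry them to DNA, and Ccn2 is among the best known genes switched on there. Angiomotin proteins such as Amotl1 hold the co-activators at junctions. Dexamethasone activates the glucocorticoid receptor, and transcript levels do not show phosphorylation or the place of a protein in the cell.

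The median library held 742957 counts, the smallest 268538 and the largest 1451422. Fkbp5 and Tsc22d3, textbook glucocorticoid receptor targets, were higher after dexamethasone in every region, with log2 fold changes of 1.65 to 2.79 and 0.85 to 1.39. Several groups and libraries stood apart in marker genes of regions or cell types. The 15 vehicle CER libraries held 0 counts of Gabra6, which marks granule neurons of the cerebellum, and this allows up to 0.292 CPM (counts per 1000000 of the scaled library total) over the group, counting error only. CER is not spelled out in the sources used here. Gabra6 exceeded 100 CPM in 4 other libraries, namely vehicle 15 of vCA1 and vehicle 4, vehicle 15 and dexamethasone 13 of vDG. The dentate gene Prox1 had a median of 522 CPM in dCA1 vehicle libraries against 439 in dDG, and the CA1 gene Fibcd1 a mean log2 CPM of 5.45 in dCA1 and 5.36 in dDG, so these markers do not set dCA1 apart from dDG as the labels do. The PVN gene Oxt ran from 5.30 to 1559 CPM over PVN vehicle libraries. Vehicle 4 of dCA1 stood apart in glial and vascular markers, with a summed level of 19683 CPM. In vCA1 6 further dentate genes (Npnt, Plk5, Dsp, Tdo2, Stxbp6 and Lct) had a mean level of 3.28 ± 0.79 (log2(CPM + 1), SD, n = 14) in vehicle and 4.21 ± 0.76 (SD, n = 15) in dexamethasone libraries. In dCA1 it was 6.27 ± 0.52 (SD, n = 15) and 5.85 ± 0.89 (SD, n = 13), where Plk5 (log2 fold change -0.82, adjusted p = 0.00562) and C1ql2 (-0.64, adjusted p = 0.0411) were lower after dexamethasone, and in dDG 5.94 ± 1.03 and 6.00 ± 1.00 (SD, n = 15 each). The responses and the vehicle levels were also fitted without the libraries high in Gabra6 and without vehicle 4 of dCA1, and no fit was made for the Prox1 and Oxt values.

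Tead1 was measured over exons on the plus strand of chr7:112679318-112906807 (mm10), and at least 12 counts were found in each library. In vehicle animals the regional mean ran from 33.5 ± 7.34 CPM in PFC (SD, n = 15) to 76.1 ± 21.2 CPM in dCA1 (SD, n = 15), a 2.27-fold range. From the highest, the order was dCA1, vDG at 74.6 ± 24.3, dDG at 70.0 ± 16.1, PVN at 56.9 ± 11.2, vCA1 at 52.8 ± 9.07, CER at 46.0 ± 10.1, AMY at 43.1 ± 6.81 and PFC. Each pair of neighbours in that order differed by less than the larger of their SDs, except AMY and PFC. Of the 15 vehicle animals, dCA1 was above PFC in 15, vDG above PFC in 15 and dDG above PFC in 14.

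After dexamethasone the order of regions was another one. The highest mean was 125.7 ± 24.4 CPM in PVN, followed by vDG at 112.4 ± 21.4, AMY at 100.3 ± 21.2, vCA1 at 95.9 ± 15.7, CER at 95.7 ± 17.7, dCA1 at 87.4 ± 17.6, dDG at 86.6 ± 15.5 and PFC at 69.1 ± 18.4. The range between regions was 1.82-fold. In dexamethasone animals dCA1 was above vCA1 in 6 of 13 animals with both, against 11 of 14 vehicle animals, and dDG was above vDG in 3 of 15 against 8 of 15.

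Tead1 levels were higher after dexamethasone in all 8 regions, by amounts that ran from 2.32-fold in AMY to 1.17-fold in dCA1. In AMY the vehicle libraries ran from 33.7 CPM over a median of 39.4 to 56.9 CPM, and the dexamethasone libraries from 60.8 over 96.2 to 135.6 CPM. In CER the vehicle values were 29.6, 48.6 and 61.4 CPM (lowest, median and highest) and the dexamethasone values 69.4, 92.9 and 122.1 CPM. In vCA1 they were 34.5, 52.7 and 64.3 CPM in vehicle and 66.9, 95.6 and 120.8 CPM in dexamethasone libraries. The arms did not overlap in these 3 regions.

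In PVN the vehicle values were 38.5, 56.4 and 78.9 CPM and the dexamethasone values 77.7, 127.7 and 172.6 CPM, so that 14 of 15 dexamethasone libraries were above the highest vehicle library. In PFC they were 20.1, 33.6 and 49.2 CPM against 40.8, 70.5 and 97.4 CPM, with 11 of 14 dexamethasone libraries above every vehicle library. Overlap was slight in both regions.

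In vDG, dDG and dCA1 the arms overlapped widely. The vDG values were 39.7, 77.0 and 131.4 CPM in vehicle and 76.8, 118.5 and 144.6 CPM in dexamethasone libraries, and 3 of 15 dexamethasone libraries were above the highest vehicle one. The dDG values were 40.7, 70.1 and 110.3 CPM against 62.7, 80.0 and 112.4 CPM, with 1 of 15 above. The dCA1 values were 43.5, 75.6 and 125.5 CPM against 56.0, 84.8 and 111.8 CPM, with 0 of 13 above.

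**Figure D1:**
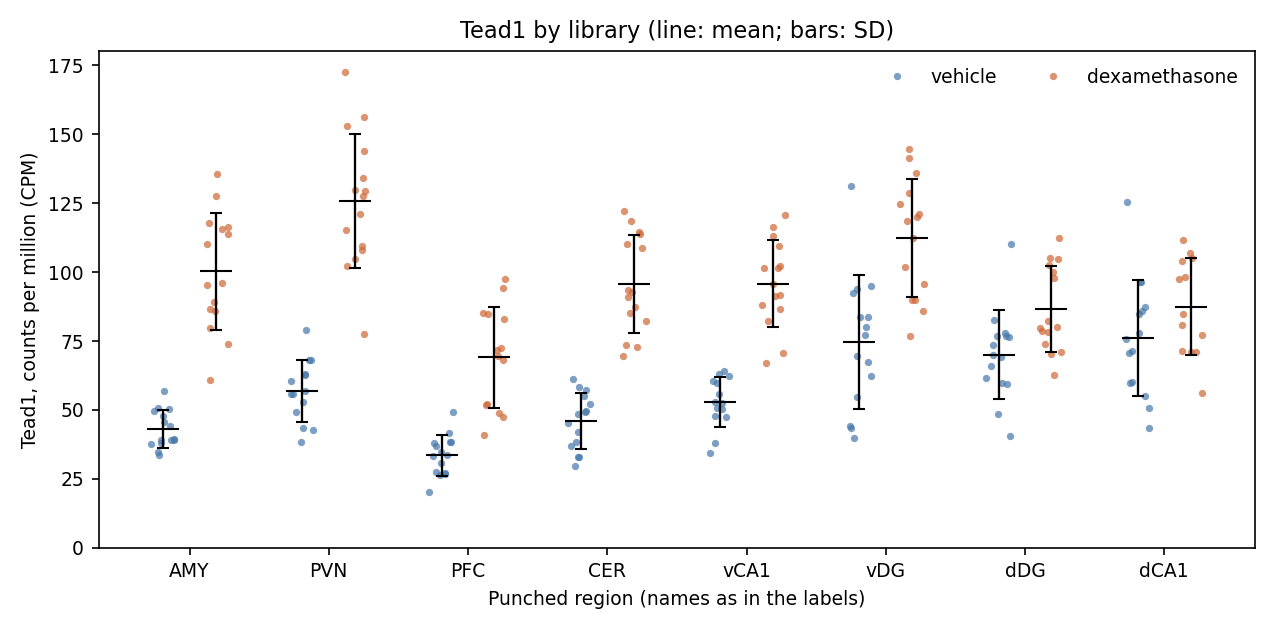
Tead1 level in CPM (vertical axis) of each library, by region (horizontal axis, ordered by fold change) and arm; points are libraries, lines are means and bars are 1 SD. The arms are apart in AMY, CER and vCA1 and overlap most in dDG and dCA1, where vehicle means are 70.0 and 76.1 CPM.

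The fitted log2 fold changes of Tead1 were 1.21 (SE 0.11) in AMY, 1.14 (SE 0.10) in PVN, 1.05 (SE 0.13) in PFC and 1.03 (SE 0.11) in CER. They were 0.86 (SE 0.10) in vCA1, 0.60 (SE 0.14) in vDG, 0.29 (SE 0.11) in dDG and 0.23 (SE 0.12) in dCA1. Without the libraries that stood apart, the value was 0.88 in vCA1, 0.56 in vDG and 0.27 in dCA1. The regions with the highest vehicle levels had the smallest fold changes, and across the 8 regions Pearson's r of vehicle level and log2 fold change was -0.80. The vehicle libraries enter both measures, so this r is a description only. Within the punching dates and the library plates that held both arms of a region, the difference was above 0 in 32 of 32 date strata and 32 of 32 plate strata. The date strata ran from 0.68 to 1.41 (log2 CPM) in AMY, CER, PFC and PVN and from 0.13 to 0.59 in dCA1 and dDG. The strata share animals across regions and hold the values on which Tead1 was selected, so these counts and ranges are a description too.

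Fkbp5 showed its smallest log2 fold changes in dDG, at 1.65 (SE 0.12), and dCA1, at 1.66 (SE 0.12), against 2.35 to 2.79 in the other 6 regions. Its vehicle means were 34.1 and 33.9 CPM there and 12.8 to 28.3 CPM elsewhere. Tsc22d3 had another order, with its largest log2 fold change in dCA1, at 1.39 (SE 0.16), and its smallest in CER, at 0.85 (SE 0.10). All of these values come from the same libraries as those of Tead1.

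Of 62 tests on the 8 genes other than Tead1, 5 passed (8.06%), 4 higher and 1 lower, where 5.17% of tests over all genes and regions passed. At an unadjusted p under 0.05 there were 22, where 13.8% of all tests were under it. The passing tests were Ccn2 in PFC, dCA1, dDG and vDG and Wwtr1 in dDG. The share of all genes called was 6.18% in CER, 6.14% in PFC, 5.63% in PVN, 5.62% in AMY, 5.45% in vCA1, 4.68% in dCA1, 3.93% in vDG and 3.70% in dDG. With same-numbered vehicle and dexamethasone libraries as a replicate block, which share a plate and nearly always a punching date, 543 genes were called in dDG against 316. The median log2 fold change of the 8 genes over the 62 tests was 0.00. Without the libraries that stood apart in vCA1, vDG and dCA1, 5 tests passed again.

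The co-activators did not rise with Tead1. Wwtr1 (TAZ, minus strand of chr3:57455649-57575910) was lower after dexamethasone in dDG, and its estimate was below 0 in all 8 regions. Its dDG values were 27.1, 48.5 and 62.6 CPM in vehicle libraries (lowest, median and highest) and 21.0, 31.3 and 56.2 CPM in dexamethasone libraries. The groups overlapped, with 3 of 15 dexamethasone libraries below the lowest vehicle library. The log2 fold change was -0.47 (SE 0.13) with an adjusted p of 0.0289 in edgeR's quasi-likelihood test. Without vehicle 9 of dDG it was -0.44 with an adjusted p of 0.0606. In the other 7 regions the log2 fold change ran from -0.29 to -0.47 and did not pass the test, although the unadjusted p was under 0.05 in 8 of 8 regions. In PVN, where the vehicle values were 27.9, 37.6 and 47.7 CPM and the dexamethasone values 14.7, 26.3 and 44.1 CPM, the log2 fold change of -0.39 (SE 0.12) had an adjusted p of 0.0511 (0.0300 to 0.0486 under 6 alternatives), and 9 of 15 dexamethasone libraries were below the lowest vehicle one. In dCA1 the log2 fold change was -0.47 (SE 0.17) with an adjusted p of 0.119. It passed there with the replicate block (-0.44, adjusted p = 0.0157), with date and plate (0.0257) and with the level of the 6 further dentate genes as a covariate (-0.63, adjusted p = 0.00612). The difference was positive in 1 of 32 date strata and 1 of 32 plate strata.

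Yap1 (minus strand of chr9:7931999-8004596), the other co-activator, passed the test in 0 of 8 regions, of which 3 had an unadjusted p under 0.05, and in dDG with the replicate block. Its log2 fold change was below 0 in all 8 regions and ran from -0.60 (SE 0.20) in dDG to -0.01 (SE 0.13) in PVN. In dDG the vehicle values were 19.5, 45.2 and 62.6 CPM and the dexamethasone values 6.16, 24.2 and 76.7 CPM, with an adjusted p of 0.0950, and with the replicate block it was -0.65 with an adjusted p of 0.0310. One dexamethasone library of dDG was above every vehicle library and 3 were below all of them, so the arms overlapped from end to end.

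Within a library, the log2 ratio of Tead1 counts to the summed counts of Yap1 and Wwtr1 was higher after dexamethasone by 1.41 in AMY, 1.39 in CER, 1.37 in PVN and 1.31 in PFC. The difference was 1.13 in vCA1, 0.92 in vDG, 0.90 in dDG and 0.63 in dCA1. In AMY, CER and PFC, each dexamethasone library (15, 15 and 14) had a ratio above the highest vehicle library. The ratio holds Tead1, so it is a description.

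Promoter windows from RefSeq (GRCm38.p6) were found for 6 of the 9 genes, and those of both co-activators are shown because their proteins bind Tead1 and both genes had estimates below 0 in all regions. The 250 bases before the start are printed 5′ to 3′ on the minus strand, with the TEAD core CATTCC, here as GGAATG on the other strand, in capitals. The Wwtr1 stretch is chr3:57575911-57576160 and the Yap1 stretch is chr9:8004597-8004846.
Wwtr1: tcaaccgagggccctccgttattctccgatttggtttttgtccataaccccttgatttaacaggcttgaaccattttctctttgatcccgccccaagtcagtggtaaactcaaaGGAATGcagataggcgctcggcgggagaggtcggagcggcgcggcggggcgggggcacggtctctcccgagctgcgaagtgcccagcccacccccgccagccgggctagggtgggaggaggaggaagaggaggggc
Yap1: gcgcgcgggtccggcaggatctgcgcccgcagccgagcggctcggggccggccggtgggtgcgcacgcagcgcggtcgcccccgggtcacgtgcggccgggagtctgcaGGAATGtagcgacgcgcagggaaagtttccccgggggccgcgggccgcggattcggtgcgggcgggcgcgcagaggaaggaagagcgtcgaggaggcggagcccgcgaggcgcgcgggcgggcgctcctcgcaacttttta
The core begins 136 bases before the start in Wwtr1 and 141 bases before it in Yap1. A second Wwtr1 window has another start, and the same core lies at -170 from that one. Of the 6 genes, 4 held the core in a window of 300 bases (Wwtr1, Yap1, Sav1 and Lats2), and 14.7% of all 32851 windows of that length held it on either strand. The letters AGAACA, a glucocorticoid receptor half-site, were in 0 of the 6 genes' windows and in 19% of all windows. The last 2 letters of AGAACA are the first 2 of CATTCC, so the motifs can overlap, and a match is a description of letters only.

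Some markers of other cells moved with dexamethasone in the same libraries. The summed level of 8 endothelial markers had a median of 416 to 574 CPM over the vehicle groups and 302 to 423 CPM over the dexamethasone groups, lower in 8 of 8 regions. Of 48 tests on those markers, 19 passed, all lower, in 3 genes: Flt1 and Slco1a4 in all 8 regions and Itm2a in 3. The 3 others that could be tested passed nowhere, with estimates above 0 in 9 and below 0 in 15 of 24 tests, from -0.41 to 0.33 (Ly6c1 in vCA1, adjusted p = 0.224). The 6 microglial markers had medians of 281 to 540 CPM and 165 to 305 CPM, with 16 of 42 tests passed, all lower, which were Cx3cr1 and P2ry12 in all 8 regions; the 4 others passed nowhere (-0.46 to 0.10). The 8 astrocyte markers were the most abundant of these lists. Their medians were 5461 to 7541 CPM in vehicle and 5658 to 7206 CPM in dexamethasone groups, lower in 6 of 8 regions. The 3 of 64 tests that passed were Aldh1l1 (0.72) and Aqp4 (-0.44) in dCA1 and Fgfr3 (0.39) in PVN. The 5 other genes passed nowhere, with estimates below 0 in 36 of 40 tests, from -0.32 to 0.07. Of the other lists, Mog, an oligodendrocyte gene, was lower in AMY (-0.58, adjusted p = 0.0303) and Ttr, a choroid plexus gene, in vCA1 (-2.27, adjusted p = 0.00692). Of the genes that mark regions, Prox1 was lower in AMY, CER and PVN (-0.47, -1.04 and -0.35) and Rorb in AMY, dCA1, dDG, vCA1 and vDG (-0.73 to -0.40). No defining marker of the first 3 lists was at 0 in a group. Their part in the lower Wwtr1 values was not tested.

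**Figure D2:**
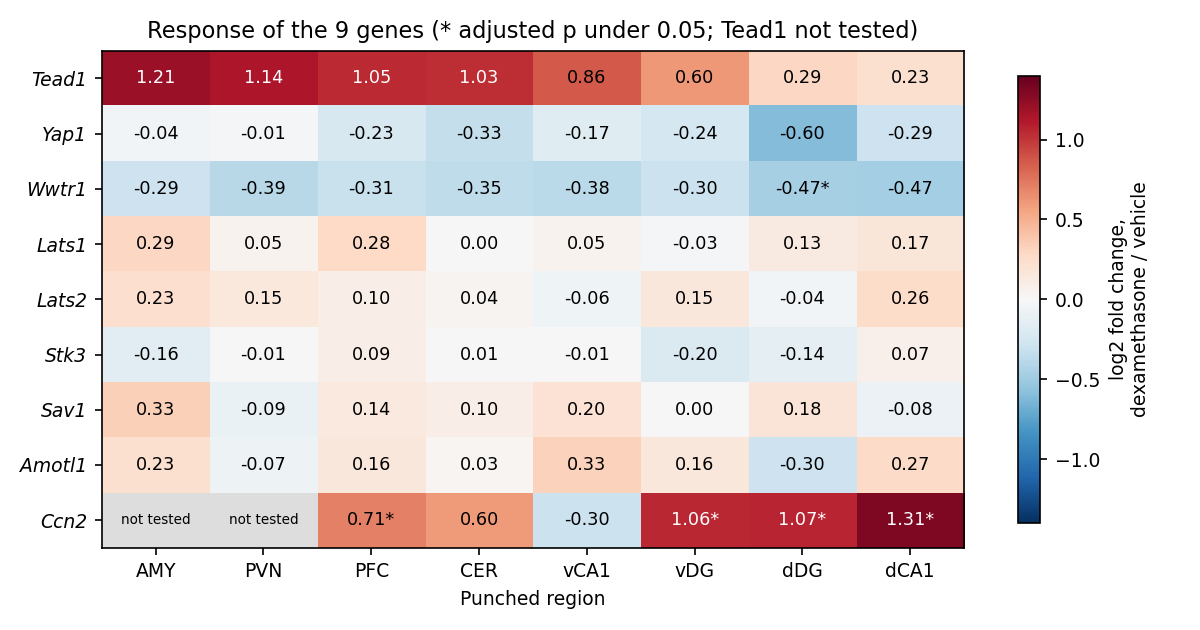
Log2 fold change (dexamethasone over vehicle, color scale and printed value) of the 9 genes (rows) in 8 regions (columns, ordered by Tead1); a star marks an adjusted p under 0.05 and gray marks genes below the count filter. Tead1 runs from 1.21 to 0.23, Wwtr1 and Yap1 are below 0 throughout, and Ccn2 is starred in PFC, vDG, dDG and dCA1.

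The kinases, Sav1 and Amotl1 passed the test in no region. Lats1 (chr10:7681209-7716458) had log2 fold changes of -0.03 to 0.29 and Lats2 (chr14:57642077-57758388) of -0.06 to 0.26. Lats2 shares 332 exon bases with Xpo4 on the same strand, so some of its reads could belong to either gene. Stk3 (chr15:34875496-35155806), the kinase at the top of the cascade, ran from -0.20 to 0.09 and its adaptor Sav1 (chr12:69965012-69987002) from -0.09 to 0.33. Amotl1 (chr9:14541966-14615483), the angiomotin, ran from -0.30 (dDG) to 0.33 (vCA1). Standard errors of these 5 genes were 0.09 to 0.19. In edgeR 0 of 40 tests on them passed, where 5.17% of all tests did, and the smallest adjusted p was 0.143 (Amotl1). An unadjusted p under 0.05 was found in 7, where 13.8% of all tests were under it. The median count per library was 14 for Stk3, 20 for Sav1, 29 for Lats1, 48 for Lats2 and 51 for Amotl1.

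Ccn2 (plus strand of chr10:24595442-24598683), a secreted matrix protein gene and the target in the list, rose after dexamethasone in 4 regions: dCA1, dDG, vDG and PFC. In dCA1 the vehicle values were 1.4, 9.97 and 19.5 CPM and the dexamethasone values 12.5, 23.0 and 40.1 CPM, and 8 of 13 dexamethasone libraries were above the highest vehicle library. The log2 fold change was 1.31 (SE 0.24, adjusted p = 0.000245). In dDG the values were 3.34, 11.4 and 26.9 CPM against 6.16, 27.8 and 48.2 CPM, with 8 of 15 dexamethasone libraries above the vehicle range. The log2 fold change there was 1.07 (SE 0.25, adjusted p = 0.00600). In both regions Ccn2 came through the filter on low counts mainly by its dexamethasone libraries. The filter asked for 10 counts at the median library size in 13 libraries of dCA1 and 14 of dDG. That level was reached by 3 of 15 vehicle and 11 of 13 dexamethasone libraries in dCA1, and by 5 of 15 and 12 of 15 in dDG. With no filter the values were 1.32 (SE 0.24, adjusted p = 0.000148) and 1.07 (SE 0.25, adjusted p = 0.00689).

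In vDG the Ccn2 values were 10.7, 35.0 and 82.4 CPM in vehicle and 8.54, 63.5 and 208.3 CPM in dexamethasone libraries. Their log2 fold change was 1.06 (SE 0.30, adjusted p = 0.0334). That call rested on single libraries. It was lost, with adjusted p of 0.0519 to 0.0897, when any 1 of 10 libraries was left out (vehicle 2, 3, 7, 8, 9 or 14, dexamethasone 3, 4, 5 or 14), while the log2 fold change stayed between 0.89 and 1.18 over all 30 such fits. Without the 3 vDG libraries high in Gabra6 it was 1.11 with an adjusted p of 0.0476. In PFC the values were 8.30, 25.3 and 47.0 CPM against 16.5, 38.5 and 62.3 CPM, and the log2 fold change was 0.71 (SE 0.17, adjusted p = 0.00352). In these 4 regions the arms overlapped.

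In CER 1 vehicle library decided the Ccn2 value, and it had the lowest RNA integrity and depth of its group. Vehicle 8 had 222.8 CPM while the next highest vehicle library had 22.3 CPM, and the vehicle mean was 26.1 ± 54.8 CPM (SD, n = 15) with it and 12.0 ± 6.84 CPM (SD, n = 14) without it. The RNA integrity number (RIN) of vehicle 8 was 2.5, against 4.9 to 7.6 in the other 14, and its total count was 268538, against at least 517471. It is among the libraries that the variance-stabilised values used here do not hold, as is vehicle 4 of dCA1 (RIN 4.2). The dexamethasone values were 9.11, 28.8 and 48.3 CPM. The log2 fold change was 0.60 (SE 0.38, adjusted p = 0.580) with that library and 1.22 (SE 0.25, adjusted p = 0.000559) without it. Both fits used the filter on low counts, and as in dCA1 and dDG the vehicle libraries alone were not enough to bring Ccn2 through it. With all libraries, DESeq2 gave 1.21 with an adjusted p of 4.85e-05.

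In vCA1, its most abundant region in vehicle animals, Ccn2 had an estimate below 0. The vehicle values were 19.1, 68.3 and 152.4 CPM and the dexamethasone values 13.0, 59.2 and 116.3 CPM, and the log2 fold change of -0.30 (SE 0.25) did not pass the test (adjusted p = 0.675). Dentate genes were higher after dexamethasone in the same vCA1 libraries: Dsp by 1.95, Npnt by 1.22 and C1ql2 by 1.08 on the log2 scale (adjusted p 0.000788, 0.00837 and 0.0345), and Prox1 had 0.80 (adjusted p = 0.0522). With the replicate block C1ql2 had an adjusted p of 0.0682. With the mean level of the 6 further dentate genes as a covariate the Ccn2 value was -0.10 (SE 0.28, adjusted p = 0.975), the Tead1 value was 0.82 (SE 0.12), and the genes called in vCA1 went from 497 to 278. Ttr in these libraries ran from 15.8 over a median of 37.7 to 1413 CPM in vehicle and from 11.4 over 25.9 to 91.0 CPM in dexamethasone libraries. AMY and PVN fell under the filter on low counts. In PVN, 9 of 15 dexamethasone libraries were above the highest vehicle library of 15.0 CPM, and a fit with no filter gave 1.3 (SE 0.31, adjusted p = 0.00475). In PVN the value was 1.16 to 1.41 and passed in 29 of 29 fits that left out 1 library. In AMY the same fit gave 0.20 (SE 0.30, adjusted p = 0.860). Without vehicle 12 of AMY, at 71.3 CPM against a vehicle median of 10.9 CPM, it was 0.54 (SE 0.28, adjusted p = 0.460), and without vehicle 15, at 44.3 CPM, 0.40 (adjusted p = 0.658). It was 0.10 to 0.54 over 30 such fits in edgeR, of which 0 passed and 0 had an unadjusted p under 0.05.

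**Figure D3:**
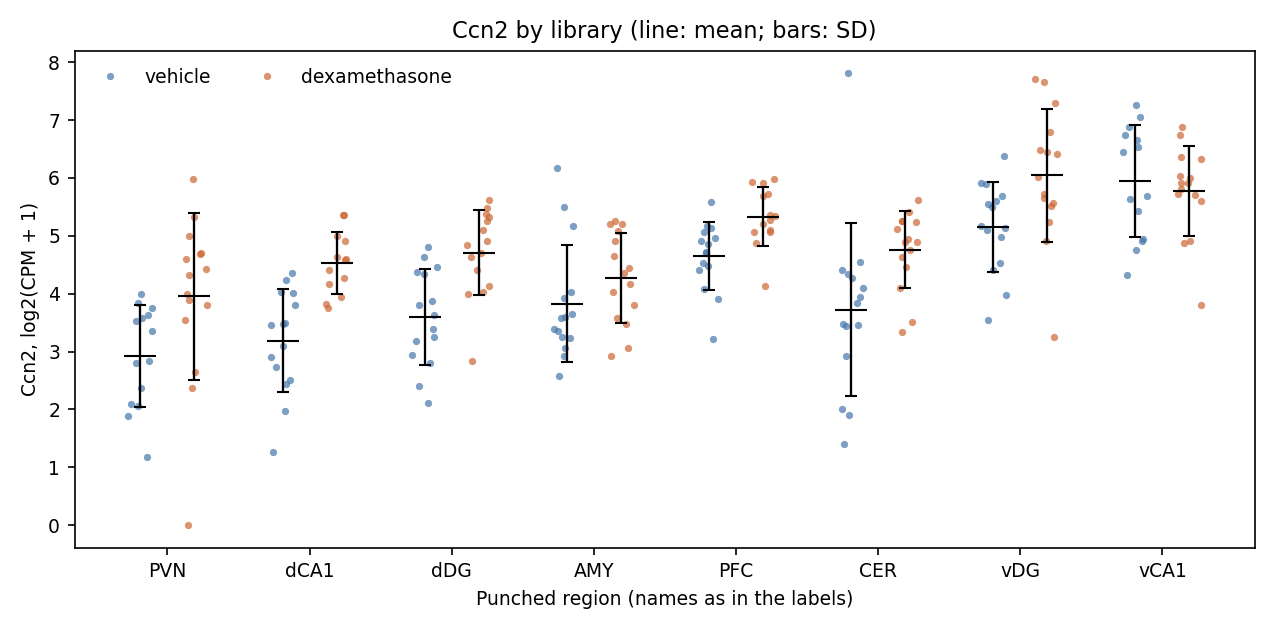
Ccn2 level as log2(CPM + 1) (vertical axis) of each library, by region (horizontal axis, ordered by vehicle mean CPM) and arm; points are libraries, lines are means and bars are 1 SD. The single CER vehicle library at 222.8 CPM is the topmost point of that region, and vCA1 vehicle libraries run from 19.1 to 152.4 CPM.

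Fibroblast markers, which stand for meningeal and vessel-wall cells, were set beside Ccn2. Their summed level of 6 genes had a median of 109 CPM in both arms of dCA1, with ranges of 65.9 to 193 CPM in vehicle and 51.8 to 262 CPM in dexamethasone libraries. In dDG the median was 274 CPM in vehicle and 165 CPM in dexamethasone libraries, in vDG 329 and 355 CPM, and in PFC 130 and 136 CPM. Of 25 tests on those markers, 1 passed, Col1a2 in PVN (log2 fold change 0.50, adjusted p = 0.0303), where the summed median was 73.5 CPM in vehicle and 82.7 CPM in dexamethasone libraries. The summed endothelial markers had lower medians after dexamethasone in these regions, as described above. The part of these cells in the Ccn2 values was not tested.

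A response that differed among the 8 regions was tested for the 8 genes as a region-by-treatment interaction over the libraries of all regions. In edgeR 0 of 8 passed, with 2 at an unadjusted p under 0.05, and 1.17% of all genes passed. Ccn2 had the smallest adjusted p, 0.0710 (unadjusted 0.000938), followed by Amotl1 at 0.517. The Ccn2 result changed with the libraries, the model and the regions that entered. It passed without the CER vehicle library at 222.8 CPM (adjusted p = 0.0100), without the 4 libraries high in Gabra6 (0.0378) and with RNA integrity as a covariate (0.0456). It was 0.820 in limma with the animal as a random effect and 1.00 without vCA1. Wwtr1, lower by estimate everywhere, had an adjusted p of 1.00 for a difference among regions.

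In vehicle animals the 8 genes other than Tead1 had regional patterns of their own, tested with the animal as a block. All 8 differed among regions at an adjusted p under 0.05, as did 73.3% of all genes tested. Without vehicle 15 of vCA1, vehicle 4 and 15 of vDG and vehicle 4 of dCA1 all 8 passed again, and without vehicle 8 of CER 7 did, with Lats1 at 0.0533. Lats1 did not pass without the animal block (0.0571) or with no filter (0.0987), and in limma with the animal as a random effect Lats1 (0.0614) and Sav1 (0.129) did not. Of the 28 pairs of regions, 31.4% of all gene tests passed. Amotl1 had the widest pattern apart from Ccn2. It was 244.5 ± 69.2 CPM (SD, n = 14) in PVN and 105.3 ± 20.3 CPM in AMY, its next highest region, with an adjusted p of 2.01e-14 between them, and 49.5 ± 12.8 CPM in vCA1. CER at 91.4 CPM was above dDG at 68.6 CPM (adjusted p = 0.00859), and 18 of 28 pairs passed.

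Lats2 was higher in the CA1 and DG punches, at 98.8 ± 30.7 CPM in vCA1, 95.6 ± 20.7 in dCA1, 85.2 ± 25.6 in dDG and 72.6 ± 14.0 in vDG, than in PVN at 45.1 ± 10.0 CPM. No neighbours in its order of regions passed the test, except CER at 64.4 and PFC at 49.6 CPM (adjusted p = 0.0181), and 20 of 28 pairs passed. Lats1, its paralogue, varied least, from 31.5 ± 7.20 CPM in PFC to 44.2 ± 9.09 CPM in vDG, with 3 of 28 pairs passed and an adjusted p of 0.0483 over regions.

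Yap1 had its highest level in PFC, where Tead1 had its lowest. It was 52.0 ± 7.80 CPM there, above vDG at 42.5 ± 11.1 CPM (adjusted p = 0.0180). Lower in its order, dCA1 at 36.6 CPM was above PVN at 27.8 CPM (adjusted p = 0.00929), and CER was lowest at 26.4 ± 7.53 CPM, with 17 of 28 pairs passed. Wwtr1 ran from 37.8 ± 6.18 CPM in PVN to 58.6 ± 18.0 CPM in vCA1, and no neighbours in its order passed the test (9 of 28 pairs did). Stk3 ran from 17.2 ± 5.40 CPM in CER to 26.4 ± 6.96 CPM in vDG with 8 pairs passed. Sav1 was highest in vDG at 35.5 ± 11.4 CPM and between 23.3 and 26.5 CPM in the other 7 regions, with 5 pairs passed.

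Ccn2 spanned 9.39-fold, from 7.83 ± 4.52 CPM in PVN (SD, n = 14) to 73.6 ± 43.8 CPM in vCA1 (SD, n = 14). It was 39.2 ± 19.2 CPM in vDG, below vCA1 (adjusted p = 0.0120), and 9.64 ± 5.58 CPM in dCA1 and 13.0 ± 7.44 CPM in dDG. The vCA1 level was above that of dCA1 (log2 difference 2.98, SE 0.35, adjusted p = 7.55e-12) and the vDG level above that of dDG (1.5, SE 0.34, adjusted p = 0.000525). In all, 18 of 28 pairs passed. Tead1 means of the same pairs were 52.8 CPM in vCA1 and 76.1 in dCA1, and 74.6 CPM in vDG and 70.0 in dDG.

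**Figure D4:**
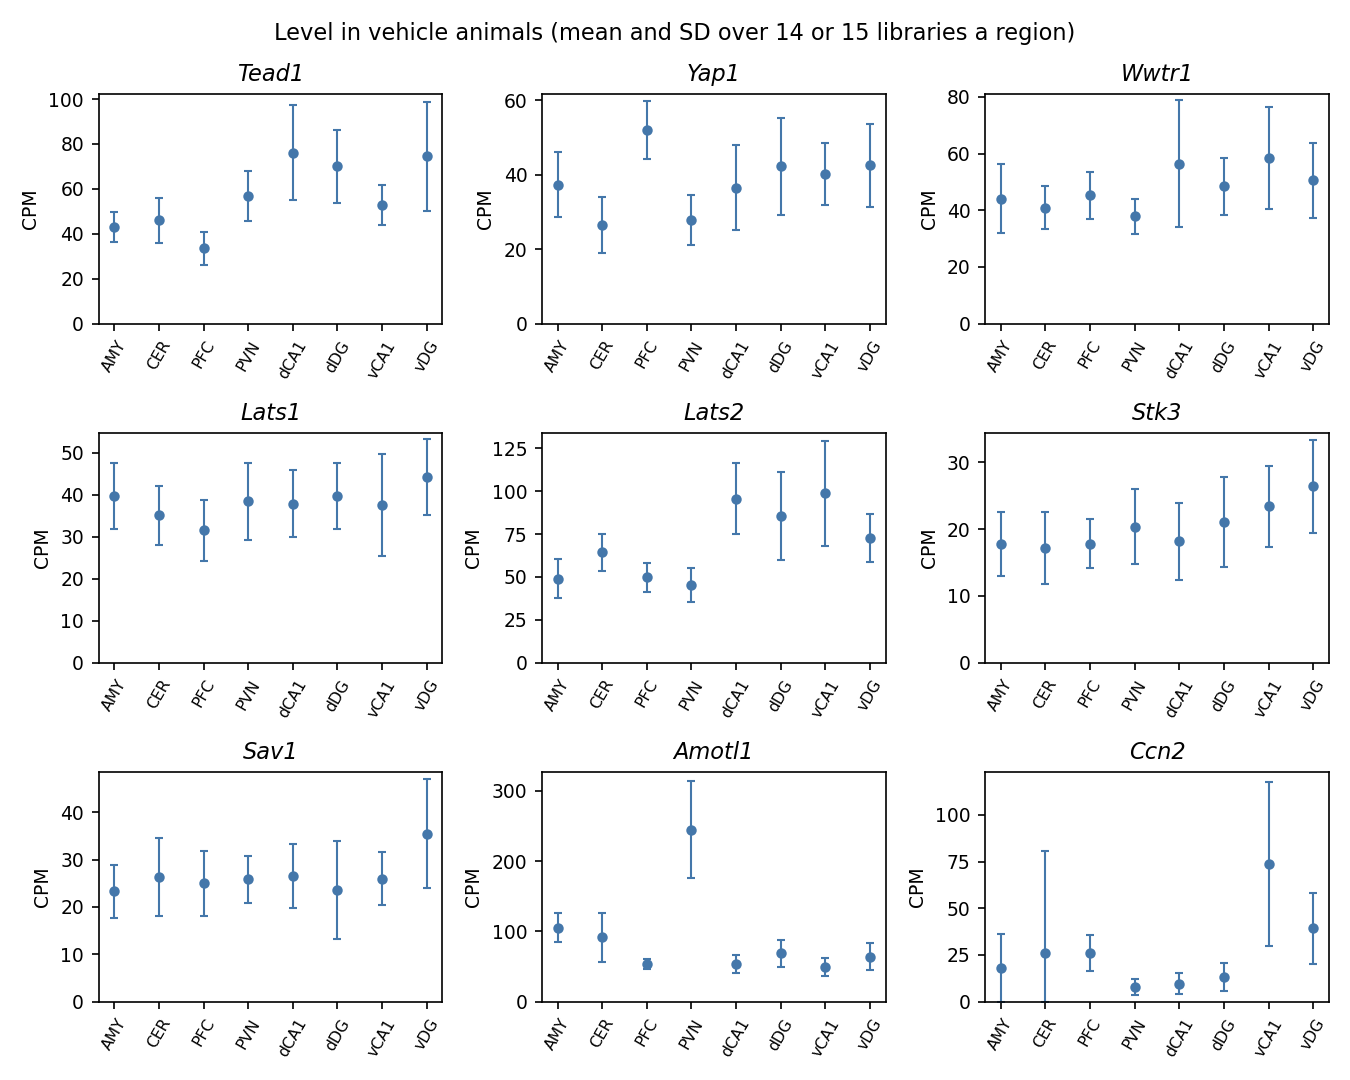
Level of each of the 9 genes in vehicle animals (CPM, vertical axis from 0) by region (horizontal axis); points are means and bars are 1 SD over 14 or 15 libraries, cut at 0. Amotl1 is highest in PVN at 244.5 CPM, Ccn2 in vCA1 at 73.6 CPM and Yap1 in PFC at 52.0 CPM.

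The genes most like Tead1 across the 118 vehicle libraries, after each region's mean was taken out, were Zbtb20 (r = 0.53), a zinc finger repressor needed for the hippocampus to form, Fcho2 (0.51), an endocytosis protein, Prex2 (0.49), a Rac exchange factor, Hook3 (0.49), a microtubule adaptor, and Phf3 (0.48). By the 8 regional means they were Pnrc1 (0.97), a nuclear receptor co-activator, U2surp (0.97), Dhx9 (0.96), Eif5b (0.96) and Jun (0.95). These are the top of 10451 genes, and the points share libraries and depth. The other 8 members had r between -0.16 (Ccn2) and 0.26 (Lats1) over the 118 libraries, and between -0.14 (Amotl1) and 0.78 (Lats1) over the 8 regional means, with Lats2 at 0.65, Stk3 at 0.51 and Wwtr1 at 0.42. Over the 118 libraries some cell markers had an r farther from 0 than these members, with the neuronal Snap25 at -0.37 and Syt1 at -0.35 and the astrocyte genes Gfap at 0.31 and Aqp4 at 0.29. The rest of these 2 lists did not follow them closely. Rbfox3 had -0.22, Slc17a7 -0.20, Gad1 0.01 and Gad2 0.05, and the other astrocyte genes ran from -0.11 (Aldh1l1) to 0.19 (Slc1a2).

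Further genes of the pathway were taken from a list of 40, of which 33 passed the count filter in at least 1 region. Of 240 tests 24 passed (10%, against 5.17% over all genes), 20 higher and 4 lower, in 6 genes, and the median log2 fold change was -0.01. Between 1 (AMY) and 4 (dCA1 and dDG) of 29 to 33 tests passed in a region, and regional medians were -0.08 to 0.05 where those of all genes were -0.02 to 0.00. Without the libraries that stood apart 23 passed.

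Among upstream scaffolds, Dlg5, a membrane scaffold protein that binds the Hippo kinases, rose in 8 of 8 regions. Its regional means were 26.0 to 54.6 CPM in vehicle and 47.4 to 77.3 CPM in dexamethasone groups, and the log2 fold change ran from 0.49 (SE 0.12) in PVN to 0.91 (SE 0.11) in PFC, where the arms did not overlap. Wwc1 (KIBRA), which activates the kinases, fell in dDG from 101 ± 21.2 to 72.8 ± 7.69 CPM, by 0.45 on the log2 scale (SE 0.09, adjusted p = 0.00205). Fat4, an atypical cadherin at the surface, fell in dCA1 from 24.7 ± 4.21 to 16.4 ± 6.56 CPM, by 0.59 (SE 0.16, adjusted p = 0.0186) on the log2 scale. It passed the filter in 3 regions, in dCA1 with 15 of 15 vehicle and 8 of 13 dexamethasone libraries at the level asked for, and had an adjusted p of 0.0375 there with no filter. With the dentate marker level as a covariate its dCA1 value was -0.51 with an adjusted p of 0.0567.

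Strn, the striatin scaffold of the phosphatase complex that opposes the Hippo kinases, rose in 7 of 8 regions. Its largest change was in CER, from 57.7 to 122.1 CPM on average, with a log2 fold change of 1.08 (SE 0.11) and 14 of 15 dexamethasone libraries above the vehicle range; elsewhere it ran from 0.41 to 0.69. In AMY it was 0.41 (SE 0.14) with an adjusted p of 0.0835. With the replicate block AMY passed (0.0374) and PVN did not (0.0581). Its paralogues Strn3 and Strn4 passed in no region. Among kinases, Tnik, of the MAP4K group that can act beside Stk3, rose in CER, PFC, PVN, vCA1 and vDG, by 0.37 to 0.46 on the log2 scale, and had values of 0.28 to 0.29 in AMY, dCA1 and dDG. With the replicate block these 3 passed as well (adjusted p 0.0210, 0.0380 and 0.0384). The kinases and adaptors Stk4, Mob1a, Mob1b, Stk38 and Taok1 passed in 0 of 8 regions.

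Of the TEAD family and its other partners, Vgll4 alone passed the filter; Tead2, Tead3, Tead4, Vgll2 and Vgll3 were too low to test. Vgll4, which competes with the co-activators for TEAD, fell in dDG from 43.6 ± 12.6 to 29.5 ± 9.77 CPM, by 0.58 on the log2 scale (SE 0.16, adjusted p = 0.0264). In dCA1 it fell from 44.5 ± 14.0 to 32.5 ± 6.95 CPM, by 0.47 (SE 0.14, adjusted p = 0.0444), and without vehicle 4 of that region the value was -0.46 with an adjusted p of 0.0598. With the replicate block it was -0.37 with an adjusted p of 0.126. In the other 6 regions it was -0.33 to -0.09.

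Of 20 listed target genes of YAP, TAZ and TEAD, 13 passed the filter in at least 1 region, and 4 of them passed a test (Fjx1, F3, Tgfb2 and Gadd45a). Of 77 tests 12 passed (15.6%, against 5.17% over all genes), 3 higher and 9 lower, in 4 genes, and the median log2 fold change was -0.07. CER had the most, with 3 of 11, and each of the 5 regions PFC, dCA1, dDG, vCA1 and vDG had 1.

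Fjx1, which encodes a Golgi kinase of the Fat cadherin branch, made up 8 of the 12. It fell in all 8 regions, by 0.46 (SE 0.13) in PVN to 0.91 (SE 0.14) in vDG on the log2 scale, from regional means of 44.5 to 88.1 CPM to 28.7 to 49.3 CPM. F3, tissue factor, rose in AMY from 112 ± 35.9 to 214 ± 70.6 CPM (log2 fold change 0.93, SE 0.16, adjusted p = 6.58e-05) and in PVN by 0.67 (SE 0.19, adjusted p = 0.0204), where DESeq2 gave an adjusted p of 0.108. Its estimates were above 0 in all 8 regions, and with the replicate block CER (0.00556) and PFC (0.0303) passed too. Tgfb2, a growth factor, fell in CER from 35.5 ± 16.9 to 21.0 ± 5.72 CPM (-0.79, SE 0.18, adjusted p = 0.00258), and was -0.40 to -0.18 elsewhere, where PVN passed with the replicate block (0.0403).

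Gadd45a, a stress response gene, rose in CER, the 1 region where it passed the filter, which it did through the dexamethasone libraries (15 of 15 at the level asked for, against 6 of 15 vehicle libraries). The vehicle mean there was 12.4 CPM and the dexamethasone mean 42.0 CPM, all 15 dexamethasone libraries were above the highest vehicle library of 21.6 CPM, and the log2 fold change was 1.79 (SE 0.17, adjusted p = 9.19e-11). Since its dexamethasone libraries carried it through the filter, that call, 1 of the 12 above, is read from the fit with no filter, which gave 1.8 (SE 0.17, adjusted p = 3.08e-11). With no filter it was also higher in AMY (1.52, SE 0.26, adjusted p = 7.12e-05), from 6.59 to 19.5 CPM on average, and in PFC (0.89, SE 0.28, adjusted p = 0.0483). Ccn1 and Ankrd1, often named with Ccn2 as targets, were below the filter in every region. With no filter, 12 tests on target genes that had been under it passed, 7 higher and 5 lower, in 6 genes. Of all tests with no filter 3.33% passed, and no share was taken for tests under the filter alone. Ccn1 was higher in PFC (1.64, SE 0.40, adjusted p = 0.00524), from 1.87 to 6.58 CPM on average, and in dDG (1.62, adjusted p = 0.0410). Nt5e, the ectonucleotidase CD73, was higher in PFC (1.39, adjusted p = 0.00112), dDG (1.25, 0.00271) and vCA1 (1.51, 0.00568). Myof was lower in PFC (-1.24, adjusted p = 0.0112) and dDG (-1.38, 0.0234), Foxf2 in PFC (-0.82, 0.0466) and dCA1 (-1.39, 0.00251), and Ccdc80 in dDG (-1.41, 0.0394). The regional means of Ccn1, Nt5e, Myof, Foxf2 and Ccdc80 in these tests were 1.38 to 17.8 CPM in either arm, so counts were low.

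**Figure D5:**
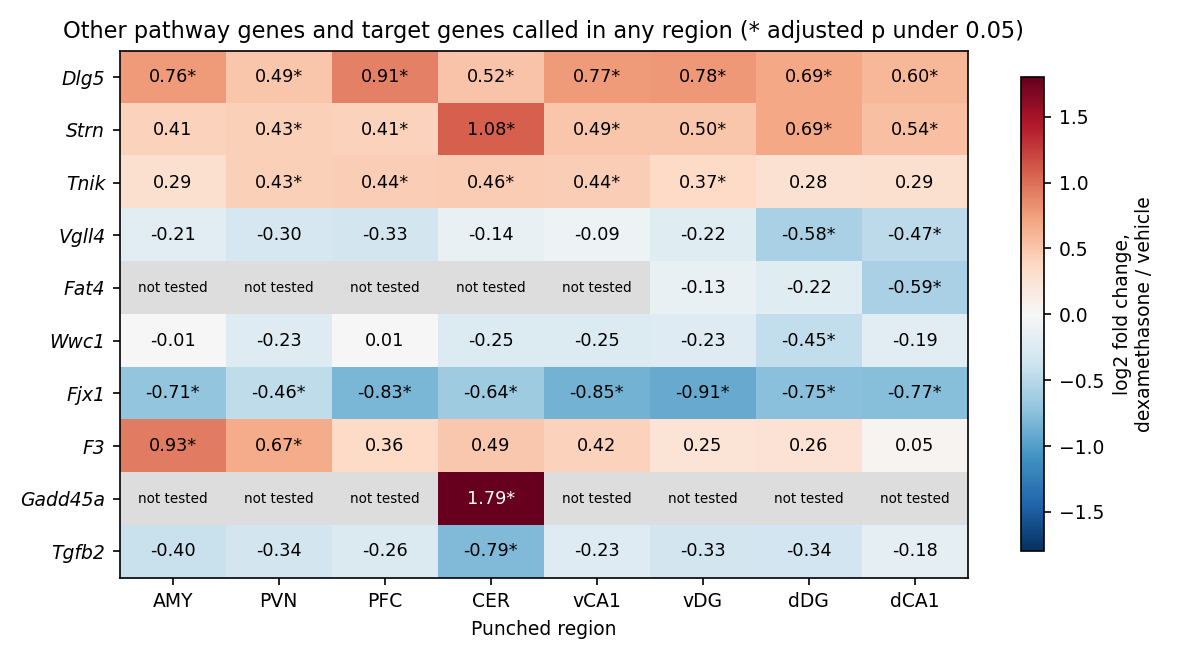
Log2 fold change (dexamethasone over vehicle, color scale and printed value) in 8 regions (columns) of the 6 other pathway genes (upper rows) and 4 target genes (lower rows) that passed in any region; a star marks an adjusted p under 0.05 and gray marks genes below the count filter. Dlg5 is starred in 8 regions with positive values and Fjx1 in 8 with negative values, and the Gadd45a value of 1.79 in CER is the largest.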

How the data were processed

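Brain punches of 30 mice were sequenced from transcript 3′ ends with molecular identifiers. Per the submitters' processing notes, the tools were FastQC 0.11.4, cutadapt, UMI-tools 0.5.4, STAR 2.6.0a, featureCounts 1.6.4, DESeq2 1.30.1 and R 4.0.5, with genome build mm10. The deposited table holds whole-number counts for 27998 genes in the libraries listed, and 27645 of the genes had a GENCODE M21 symbol. The deposited variance-stabilised values are on a log2 scale, made by the authors, and hold 7 fewer libraries; they served as an alternative only. Whether strand was used in counting is not given in the sources used here.

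Counts were fitted per region with edgeR 4.0.16 (R 4.3.3): filterByExpr, TMM scaling and the quasi-likelihood test of dexamethasone against vehicle without covariates, with Benjamini-Hochberg adjustment over all genes tested and a threshold of 0.05. An interaction fit used the libraries of all regions, treating libraries of 1 animal as independent, and a vehicle fit had the animal as a block. CPM are counts per 1000000 of the scaled total. Alternatives used DESeq2 1.42.0, limma 3.58.1, other scalings and filters, date and plate, RNA integrity (RIN), dentate level, replicate blocks and left-out libraries. Vehicle and dexamethasone libraries of a region came from different animals, so p-values measure the spread between animals and punches. By the labels, the 115 same-numbered vehicle and dexamethasone pairs of a region shared a plate in 115 cases. They shared a punching date in 109 (all but number 4), so the numbers follow plates and dates. The median correlation of their deviations was 0.05 to 0.21 by region, with some pairs under 0.1 in each. A vehicle library correlated best with the dexamethasone library of its own number in 1 of 15 cases in vDG, the fewest, and 8 of 15 in CER, the most. Promoters were searched and figures drawn with Python 3.11.15, numpy 2.4.6, pandas 2.3.3 and matplotlib 3.10.9. The edgeR test of dexamethasone against vehicle was run on counts simulated from the PFC libraries. No simulated run of the other tests is reported here.

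The genes named are the 9 members, each gene of the pathway and target lists that passed in any region, the 5 most like Tead1 by each of 2 measures, and Fkbp5 and Tsc22d3 as a check of the treatment. Other names were chosen after their values were seen. The members and lists were chosen with earlier results of these data known.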

Additional observations from a re-analysis of the deposited data

Results flagged for a closer look

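For 2 of the 16 target genes in the interaction fit, the response to dexamethasone differed among the 8 regions by edgeR's test of the interaction terms, as it did for 1.17% of all genes. Myof, which encodes a membrane repair protein, had an adjusted p of 0.00516. Its counts were low and it passed the filter in no single region, with mean levels of 3.05 CPM in vehicle and 6.00 CPM in dexamethasone libraries of AMY, 10.8 and 3.85 CPM in dDG, 6.41 and 2.73 CPM in PFC, and 14.4 and 11.5 CPM in vDG. In CER, PVN, dCA1 and vCA1 its means were 2.37 to 4.41 CPM in vehicle and 2.72 to 4.38 CPM in dexamethasone libraries. Gadd45a had an adjusted p of 0.0124. Its mean was 12.4 CPM in vehicle and 42.0 CPM in dexamethasone libraries of CER, 6.59 and 19.5 CPM in AMY, and 7.98 and 9.26 CPM in vCA1. In the other 5 regions it was 4.58 to 9.39 CPM in vehicle and 8.47 to 15.0 CPM in dexamethasone libraries. Without vCA1 the adjusted p was 0.0782 for Gadd45a and 0.00412 for Myof.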

How the results depend on the processing

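The count of 5 passing tests among the 8 genes other than Tead1 was 1 of 35 tests with a minimum of 10 counts in every library, an alternative that tests fewer genes (5.02% of all tests passed), and 5 to 7 under the other alternatives. The target list had 24 passing tests of 160 with no filter, which tests more genes (3.33% of all tests passed, against 5.17%), against 12. Members with a response differing among regions numbered 0, and 1 (Ccn2) with RIN as a covariate, without the 4 libraries high in Gabra6 and without CER vehicle 8. On the authors' log2 scale the Tead1 difference was 0.80 in AMY, 0.75 in PVN, 0.73 in CER, 0.62 in PFC and 0.56 in vCA1. That scale draws low values together. Over all 10 alternatives the Tead1 value was 0.48 to 0.64 in vDG, 0.23 to 0.29 in dDG and 0.16 to 0.27 in dCA1. The 6 alternatives under which Wwtr1 passed in PVN were DESeq2, both other scalings, date and plate, RIN and the authors' values. On the last, Yap1 in dDG passed too (adjusted p = 0.0393). On the authors' values Ccn2 in vDG did not pass (adjusted p = 0.165), nor did Vgll4 in dCA1 (0.126), Strn in PVN (0.0567) or F3 in PVN (0.249). Tnik in vDG had 0.0542 with no filter. With each of 30 libraries left out, the log2 fold change was 0.98 to 1.22 for Ccn2 in dDG, 0.89 to 1.18 for Ccn2 in vDG and -0.53 to -0.44 for Wwtr1 in dDG. These fits, and those without libraries that stood apart, were chosen after seeing the data, and other regions lost at most their library highest in Ccn2 or those named.

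With the replicate block, 7 member tests, 28 pathway tests and 17 target tests passed, against 5, 24 and 12, where the share of all tests that passed went from 5.17% to 6.41%, and 0 members in the interaction. Beside the calls named in the report, Mpp5 in CER, Scrib in dDG, and Nt5e and Asap1 in AMY passed with it (names chosen after their values were seen), and it changed no other call of these lists. In the vehicle fit, 7 of 8 members differed among regions with no animal block, and 6 in limma with the animal as a random effect.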
